A study of Rattus norvegicus with 38 samples.

Results

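Kidney RNA of 20 of the 38 rats in the series bears on what the antiserum against Fx1A added to treatment with L-NAME. The samples were chosen by their titles. Rats 29 to 38, called the combination here, received anti-Fx1A at 2.0 mL/kg together with L-NAME (20 mg/kg daily, n = 10), and rats 19 to 28 received L-NAME alone (20 mg/kg daily, n = 10). The label of the combination writes the L-NAME dose out a second time, and it was read here as the same dose, so that the antiserum is the labelled difference between the groups. Rats 9 to 18 received anti-Fx1A alone at 2.5 mL/kg (n = 10) and rats 1 to 8 received vehicle (n = 8); their values are given beside the main comparison. All animals were treated over 7 weeks. Strain, sex and age are not given in the labels. The animal numbers follow the order of the groups, so treatment and anything else that ran in that sequence cannot be told apart.

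Fx1A is a fraction of the brush border of the rat proximal tubule. Antibodies raised against it bind antigens that podocytes and proximal tubule cells share, among them the endocytic receptor megalin, and rats given such an antiserum develop passive Heymann nephritis, with immune deposits under the podocytes, complement activation and proteinuria. L-NAME blocks the nitric oxide synthases, which removes a vasodilator signal, raises blood pressure and over weeks injures glomeruli, vessels and tubules. In these models the antiserum is thus an immune injury of the glomerulus and tubule, and L-NAME a haemodynamic one. Neither injury could be assessed in the rats described here.

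Genes are given here by Ensembl identifier. Of the 30207 identifiers in the table, 0 could be matched to a symbol in the sources used here, so genes are described by their number, size, level and behaviour across animals, and 4 of them individually. For the same reason the kidney label could not be set against marker genes, and the members of injury, immune or transport pathways could not be counted. In whole kidney, fewer cells of a type and less RNA per cell cannot be told apart.

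Libraries of the combination held between 5262515 and 7023819 reads and those of L-NAME between 4870234 and 7563685. A read was found for 16966 ± 265 genes in the combination and for 16955 ± 236 with L-NAME (SD, n = 10 each), and the 10 most abundant genes took 28.8 ± 5.09% and 28.5 ± 4.74% of the reads. None of these 3 measures passed a test between the groups (adjusted permutation p of 0.711 for depth and 0.924 for the others, two-sided, 100000 resamples, adjusted over 6 measures). L-NAME animal 25 stood apart from its group. It lay a mean of 0.366 log2 units per gene from the median profile of the L-NAME animals, where the other 9 lay 0.147 to 0.210 from it and the combination animals 0.155 to 0.241 from theirs. Vehicle animal 1 and anti-Fx1A animal 10 lay apart from their own groups in the same way, at 0.352 and 0.348. The main counts of called genes are given with and without these libraries where leaving one out moved them by more than 1.5 times. The anti-Fx1A group was uneven beyond animal 10. Its animals 9 to 12 held 4434855 to 5228067 reads, with 18.2 to 25.7% in the 10 most abundant genes. Animals 13 to 18 held 6454754 to 7119831 reads, with 30.1 to 38.4% in those genes. All were fitted as a single group, and what this did to the results for anti-Fx1A alone was not tested.

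The leading principal component, which held 31.6% of the variance over all 38 animals, placed the combination at 20.3 ± 11.5 and L-NAME at 3.28 ± 20.8 (SD, n = 10 each). The combination animals ran from 4.61 to 35.7 with a median of 20.1, and the L-NAME animals from -16.9 to 49.5 with a median of 0.10. The groups overlapped, and the highest score of all 20 was that of L-NAME animal 25. The difference of 17.03 did not pass after adjustment (permutation p = 0.0366, adjusted p = 0.220, two-sided). Without animal 25 it was 22.5 and passed (adjusted permutation p = 0.00864). Leaving out the animal with the highest L-NAME score widens the difference by itself, so this pass is a description. With any other of the 20 animals left out the difference did not pass. On the second component, with 16.3% of the variance, the groups differed by 2.68 (adjusted permutation p = 0.924). Anti-Fx1A animals 9 to 12 scored 15.5 to 44.9 on it, and anti-Fx1A animals 13 to 18 scored -20.1 to -6.18.

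**Figure D1:**
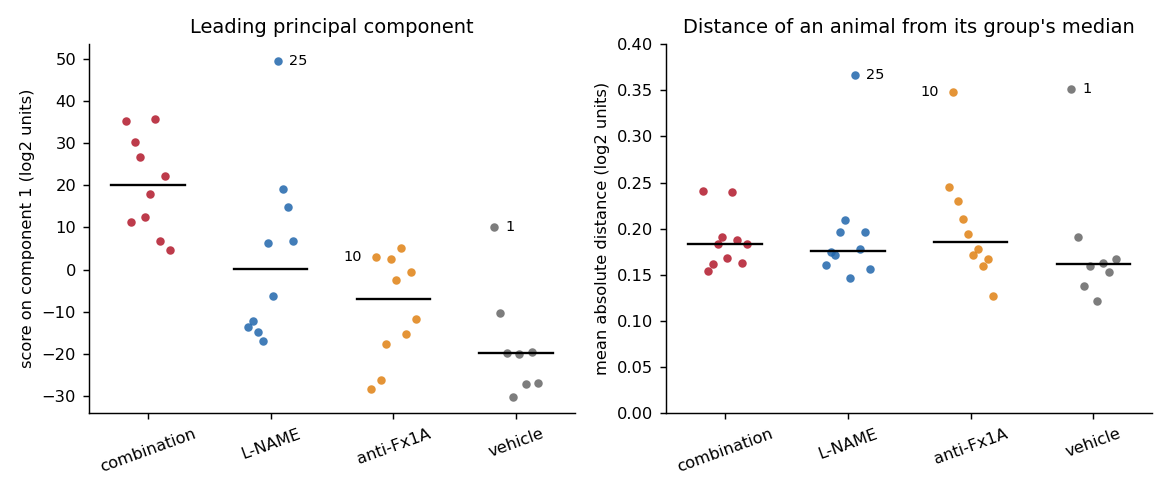
Score of each animal on the leading principal component (left, log2 units) and mean absolute distance of each animal from the median profile of its own group (right, log2 units), with a bar at the group median. The combination ran from 4.61 to 35.7 on the component, and L-NAME animal 25 at 49.5 lay above all of its own group and of the combination; animals 25, 10 and 1 lay 0.366, 0.348 and 0.352 from the medians of their groups.

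With all 38 animals in the fit, more of the called genes rose than fell when the antiserum was added to L-NAME, and both counts depended on L-NAME animal 25. Among 12599 tested genes, 151 passed, 105 of them higher and 46 lower in the combination than with L-NAME alone (limma on the deposited log2 values, Benjamini-Hochberg adjusted p under 0.05), which is 1.2% of the genes tested, 0.833% higher and 0.365% lower. Without animal 25 the counts were 356 higher and 284 lower. At an unadjusted limma p under 0.05, 1968 genes passed, 1073 higher and 895 lower. The higher genes differed by 0.23 to 1.43 log2 units, with quartiles of 0.45 and 0.72, and the lower genes by -0.29 to -0.83, with quartiles of -0.57 and -0.39. On the deposited scale, differences amounted to 1.5-fold or more in 53 higher genes and in 11 lower genes. Without animal 25 these numbers were 99 and 79. They were lower without L-NAME animal 22 (21 and 4), 21 (27 and 4), 19 (28 and 6) or 24 (32 and 6), and without combination animal 31 (33 and 7), 34 (38 and 5), 35 (37 and 4) or 37 (42 and 6). Without combination animals 34, 35 or 37, the lower genes of this size alone moved by more than 1.5 times. The same held without combination animal 32 (19) or 36 (18), L-NAME animal 26 (19) or 27 (7), or anti-Fx1A animal 10 (21). The deposited scale is compressed at low counts, so these are not counts of plain ratios of reads. In a test of the recovered reads (limma voom), 73 higher and 20 lower genes were called and reached 1.5-fold. On the deposited scale, the median absolute difference over all genes tested was 0.10, with a median SE of 0.10. The deposited values are scaled for library size, so a shift of the whole profile could not be seen in them.

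The called genes were spread over all levels of expression. When the tested genes were divided into 4 equal bins by mean level, 0.571% of the lowest bin were called, where the median gene had 22.7 reads per library, then 1.33% at 67.7 reads, 1.14% at 166 reads and 1.75% in the highest bin at 576 reads. Higher genes outnumbered lower genes in each bin, by 14 to 4, 28 to 14, 26 to 10 and 37 to 18. The median absolute difference over all genes of a bin was 0.10 in the 3 lower bins and 0.11 in the highest. On the deposited scale the bins thus differed more in the share called than in the size of the differences. That scale is compressed at low counts, so differences are understated in the lowest bin and not there alone. For ENSRNOG00000036692, described below, the difference was -0.80 on that scale and -1.20 in a test of the recovered reads. Sizes in different bins are therefore not compared on an equal footing.

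**Figure D2:**
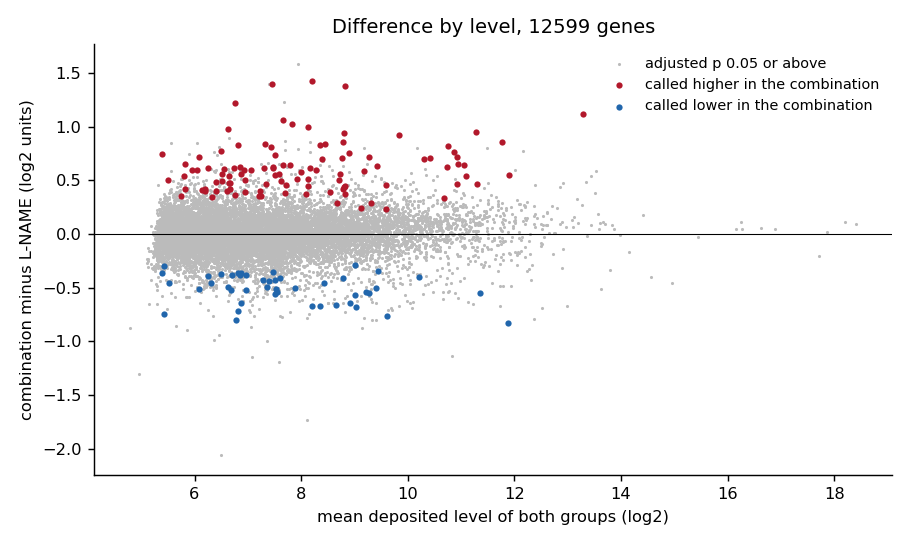
Difference between the combination and L-NAME alone (log2 units) for each of the 12599 genes tested, plotted against the mean deposited level of both groups (log2). The 105 genes called higher and the 46 called lower appear at low and high levels, and a few genes with larger differences were not called.

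Large differences were not always called. Beyond the called genes, 9 differed by at least 1 log2 unit without passing, 3 higher and 6 lower in the combination, with the largest at 1.59 and -2.06. The median SD of these 9 genes was 1.13 in the combination and 1.402 with L-NAME, against 0.22 and 0.23 over all genes tested. Their median SD was also large in the other groups, at 1.65 for anti-Fx1A alone and 1.63 for vehicle.

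Individual animals overlapped between the groups for nearly every gene. For 1 gene, a called one, every combination animal lay above every L-NAME animal (0.00794% of genes tested), and for 0 genes did every combination animal lie below. Among the 105 higher genes, 75 had at least 5 combination animals above the highest L-NAME animal, as did 4.06% of all genes tested. Among the 46 lower genes, 34 had at least 5 combination animals below the lowest L-NAME animal, as did 2.74% of all genes tested. The genes were called on these same animals, so the counts describe the size of the overlap and are no further test. Without animal 25, the groups did not overlap for 8 of the 12599 genes tested on the higher side and for 4 on the lower side. Leaving out an animal can only add such genes, so these counts too are a description.

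In many of the called genes the L-NAME value nearest to the combination was that of animal 25. It had the highest L-NAME level in 46 of the 105 higher genes and the lowest in 22 of the 46 lower genes. Over all genes tested it was the highest of its group in 22.4% and the lowest in 23.8%. L-NAME animal 26 had the highest level of its group in another 25 of the higher genes, against 5.94% of all genes, and animal 28 in 15, against 6.93%. At the other end, animal 19 was the highest of its group in 0 of the 105 higher genes, against 7.61% of all genes. Animals 22 and 24 were so in 1 each, against 12.5% and 6.64% of all genes. The genes were called on these same animals, so these counts are a description.

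The number of called genes depended strongly on which animals were compared. Without L-NAME animal 25 it was 640, with 356 higher and 284 lower, and all 151 genes were among them. It was also above 1.5 times the full count without L-NAME animal 26, at 235, without combination animal 36, at 233, and without anti-Fx1A animal 10, which enters through the shared estimate of spread, at 334. It fell below the full count divided by 1.5 without L-NAME animals 22 (47 genes), 21 (62), 19 (67) and 24 (73), and without combination animals 34 (77), 31 (78), 35 (88) and 37 (89). With libraries weighted by their fit to their group the count was 990, of which 53.0% were higher, against 69.5% in the unweighted fit. Without animals 1, 10 and 25, the 3 libraries of lowest weight, it was 1155, of which 52.7% were higher, and again all 151 were among them. This last setting was chosen after the data were seen. Without animal 25, with weighted libraries and without the 3 libraries, the share of higher genes was lower than in the full fit. The difference between the counts of higher and lower genes was not lower in these settings. In the 1-animal fits whose count fell below the full count divided by 1.5, the share was higher than in the full fit, from 72.6% without L-NAME animal 24 to 80.5% without combination animal 34.

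Many of the called genes depended on single animals. Over the 20 fits that each left out an animal of the compared groups, 44 of the 151 were called in every one, 34 of them higher and 10 lower in the combination. In at least 15 of these fits 73 were called. A test of the recovered reads (limma voom) called 129 genes, all of them among the 151.

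**Figure D3:**
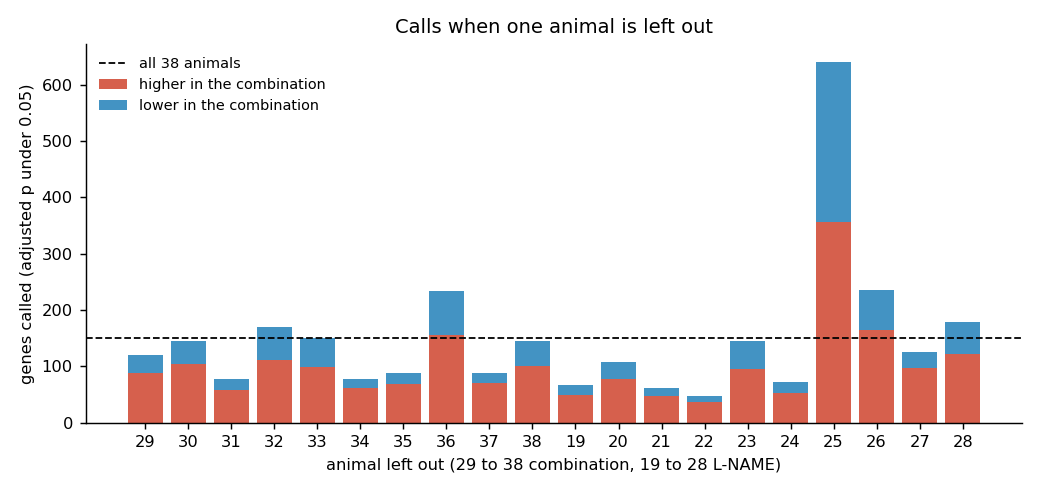
Number of genes called between the combination and L-NAME alone (adjusted p under 0.05, higher and lower stacked) when 1 of the 20 animals is left out, with the 151 genes of the full fit as a dashed line. Leaving out L-NAME animal 25 gave 640 genes, and leaving out L-NAME animal 22 gave 47.

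Among the called genes ENSRNOG00000009086 had the largest increase. Its deposited level ran from 8.23 to 10.10 in the combination with a median of 8.86, and from 6.12 to 9.13 with L-NAME with a median of 7.46. These levels stand for 266 to 972 reads in the combination and 36 to 647 with L-NAME. All 10 combination animals lay above the L-NAME median, and a single L-NAME animal, animal 25, lay above the lowest combination animal. The mean was 8.93 ± 0.57 in the combination and 7.50 ± 0.86 with L-NAME (SD, n = 10 each), a difference of 1.43 (SE 0.37, limma adjusted p = 0.0415). This call was not firm. The adjusted p ran from 0.00194 to 0.105 over 48 other settings, and it exceeded 0.05 without the filter on low values (0.0588). It also did so when any of combination animals 29, 31, 34, 35 and 37 or L-NAME animals 19, 20, 21, 22, 24 and 27 was left out, with differences of 1.27 to 1.45.

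ENSRNOG00000020039 had the next largest increase, and its call was the firmest of the 4 described. Its level ran from 6.33 to 9.14 in the combination with a median of 8.17, and from 5.66 to 7.70 with L-NAME with a median of 6.79. Combination animals had 46 to 485 reads and L-NAME animals 17 to 188. In 8 of 10 combination animals it exceeded every L-NAME animal, while combination animal 32, with the lowest level of that group, lay below 7 of the 10 L-NAME animals. The mean was 8.14 ± 0.79 in the combination and 6.75 ± 0.72 with L-NAME (SD, n = 10 each), a difference of 1.396 (SE 0.31, limma adjusted p = 0.0183). The adjusted limma p stayed under 0.05 in all 48 other settings (0.00148 to 0.0485), with differences of 1.28 to 1.78.

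Both genes had their lowest mean with vehicle, with anti-Fx1A alone next in order, though neither passed between these groups. ENSRNOG00000009086 averaged 6.97 ± 1.005 with anti-Fx1A alone (SD, n = 10) and 6.49 ± 0.87 with vehicle (SD, n = 8), and ENSRNOG00000020039 averaged 6.38 ± 0.77 and 5.53 ± 0.48 in the same groups. The combination exceeded vehicle by 2.44 for ENSRNOG00000009086 (limma adjusted p = 1.23e-05) and by 2.61 for ENSRNOG00000020039 (adjusted p = 4.53e-07). L-NAME alone exceeded vehicle by 1.01 for ENSRNOG00000009086, which did not pass (limma adjusted p = 0.0762), and by 1.21 for ENSRNOG00000020039, which did (adjusted p = 0.0104). These comparisons share the vehicle animals, and share the combination or L-NAME animals with the main one.

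ENSRNOG00000005367, an abundant transcript, had the largest decrease among the called genes. Its level ran from 10.67 to 12.04 in the combination with a median of 11.49, and from 11.67 to 13.01 with L-NAME with a median of 12.23. Reads numbered 1972 to 4343 in the combination and 3936 to 8318 with L-NAME. All 10 combination animals lay below the L-NAME median and 6 of them below every L-NAME animal. It fell by 0.83 log2 units (SE 0.20, limma adjusted p = 0.0288), with means of 11.46 ± 0.45 in the combination and 12.29 ± 0.46 with L-NAME (SD, n = 10 each). Over 48 other settings the adjusted p ran from 0.00153 to 0.0696. It exceeded 0.05 when any of combination animals 29, 34, 35 and 37 or L-NAME animals 19, 21, 22, 24 and 27 was left out, with differences of -0.74 to -0.83.

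Neither treatment alone gave a call for this gene against vehicle. L-NAME alone stood 0.25 above vehicle (SE 0.21, limma adjusted p = 0.459) and anti-Fx1A alone 0.10 above vehicle (SE 0.21, adjusted p = 0.888), both without passing; without anti-Fx1A animal 10 the value for anti-Fx1A alone was 0.25 (adjusted p = 0.654, within 0.496 to 0.985 over 47 settings). The combination lay 0.58 below vehicle (limma log2 difference -0.58, SE 0.21, adjusted p = 0.0304). These comparisons share animals with each other and with the main one.

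ENSRNOG00000036692 had the next largest decrease. Its level, which averaged 7.63 ± 0.32 with vehicle (SD, n = 8), ran from 5.50 to 7.03 in the combination with a median of 6.40, and from 6.34 to 7.75 with L-NAME with a median of 7.07. Combination animals had 16 to 99 reads and L-NAME animals 57 to 179, the lowest of them again animal 25. All 10 combination animals lay below the L-NAME median and 4 below every L-NAME animal. It fell by 0.80 log2 units (SE 0.20, limma adjusted p = 0.0375), with means of 6.38 ± 0.52 in the combination and 7.18 ± 0.46 with L-NAME (SD, n = 10 each). The adjusted p ran from 0.000771 to 0.0998 over 48 other settings and exceeded 0.05 in 13. These were the fits without the filter (0.0576), of the recovered reads (0.0591, with a difference of -1.20) and of these groups alone (0.0551), and those without combination animals 29, 31, 34, 35 or 37 or L-NAME animals 19, 21, 22, 24 or 27.

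**Figure D4:**
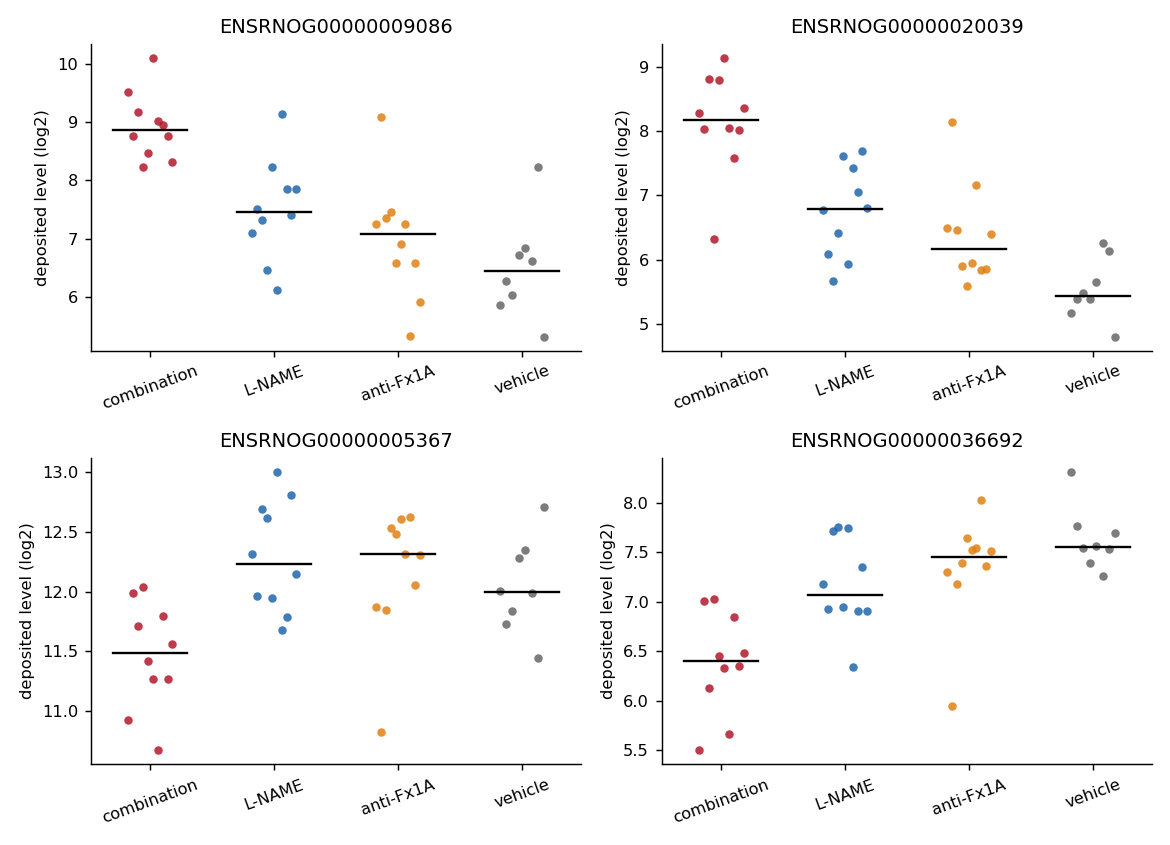
Deposited level (log2) of the 4 genes in every animal, by group, with a bar at the group median; each panel has its own axis, which does not start at 0. The upper genes had medians of 8.86 and 8.17 in the combination against 7.46 and 6.79 with L-NAME, and the lower genes 11.49 and 6.40 against 12.23 and 7.07.

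The antiserum was also given without L-NAME, at the higher dose of 2.5 mL/kg, and the comparison of those animals with vehicle shares no animal with the main one. The genes that rose when it was added to L-NAME tended to be higher there too, with smaller differences. Of the 105 higher genes, 40 were higher with anti-Fx1A alone at an unadjusted limma p under 0.05, that is 38.1%, against 8.1% of all genes tested, and 0 were lower. Their differences with anti-Fx1A alone ran from -0.19 to 1.29, and for 99 of them the difference was larger when L-NAME was present. Without anti-Fx1A animal 10 the count was 26, against 7.42% of all genes. For the 46 lower genes the picture was another: 2 were lower with anti-Fx1A alone at that threshold, or 4.35%, against 6.48% of all genes, and differences there ran from -0.34 to 0.19. That count was 1 without anti-Fx1A animal 10 or vehicle animal 6, and 4 without anti-Fx1A animals 11, 12 or 17 or vehicle animal 1. A share of this size is close to that of all genes. The genes were chosen in the presence of L-NAME, a choice that favours large differences there, so the comparison of sizes is a description. Both comparisons use the same estimate of spread per gene, so a gene of small spread passes more readily in both. The shares given here are thus not fully separate from the choice of the genes.

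The difference between the effects of the antiserum with and without L-NAME was tested directly as an interaction, with the dose difference inside it. No gene passed (0 of 12599, 0%, limma; lowest adjusted p = 0.0505), and voom also called 0. At an unadjusted p under 0.05, 1102 genes passed in limma, 8.75% of those tested, and 1050 in voom. The count was 41 without the 3 libraries of lowest weight, 37 with weighted libraries, 15 without anti-Fx1A animal 10 and 6 without L-NAME animal 25. It was between 1 and 5 without combination animal 29 or 32, L-NAME animal 21 or 26, anti-Fx1A animal 11 or vehicle animal 7 or 8. Over the called genes the median interaction was 0.35 for the 105 higher and -0.47 for the 46 lower ones, against -0.001 over all genes, and these medians share the animals on which the genes were chosen. With a median SE of 0.15 per gene, the result does not show that the antiserum acted alike in both settings.

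For the 4 genes, anti-Fx1A alone against vehicle gave no call. ENSRNOG00000009086 stood 0.48 above vehicle (SE 0.39, limma adjusted p = 0.624) and ENSRNOG00000020039 0.84 above it (SE 0.33, adjusted p = 0.194, unadjusted p = 0.0142). ENSRNOG00000036692 had a difference of -0.29 (SE 0.22, adjusted p = 0.586). Without anti-Fx1A animal 10 the difference was 0.25 for ENSRNOG00000009086 and -0.14 for ENSRNOG00000036692, and for that gene it was -0.19 without vehicle animal 1. With weighted libraries it was 0.02 for ENSRNOG00000009086 and 0.63 for ENSRNOG00000020039. Interactions were 0.94 for ENSRNOG00000009086 (SE 0.53), 0.55 for ENSRNOG00000020039 (SE 0.45), -0.94 for ENSRNOG00000005367 (SE 0.29) and -0.51 for ENSRNOG00000036692 (SE 0.30), with limma adjusted p between 0.316 and 0.737. Without the 3 libraries of lowest weight the interaction of ENSRNOG00000005367 was -1.15 and passed (adjusted p = 0.0408, within 0.0408 to 0.475 over 47 settings).

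The called genes were also averaged within each animal. The average of the 105 higher genes ran from 8.19 to 8.56 in the combination with a median of 8.36, and from 7.45 to 8.07 with L-NAME with a median of 7.74. The average of the 46 lower genes ran from 7.22 to 7.71 in the combination and from 7.63 to 8.24 with L-NAME. The genes were chosen for this difference, so the gap between these groups is a description only. L-NAME animals 25 and 26 came nearest to the combination, with averages of 8.07 each for the higher and 7.63 and 7.77 for the lower genes.

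The anti-Fx1A and vehicle animals played no part in the choice other than through the filter on the mean level of all animals and the estimate of spread. Anti-Fx1A animals averaged 7.38 to 8.25 over the higher genes with a median of 7.67, and vehicle animals 7.24 to 7.64 with a median of 7.47. Over the lower genes anti-Fx1A animals averaged 7.48 to 8.14, and vehicle animals 7.98 to 8.15. The extreme of the anti-Fx1A group on both averages was animal 10, at 8.25 and 7.48, which lies within the range of the combination on both although this animal received no L-NAME. The other 9 anti-Fx1A animals averaged at least 8.02 over the lower genes.

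**Figure D5:**
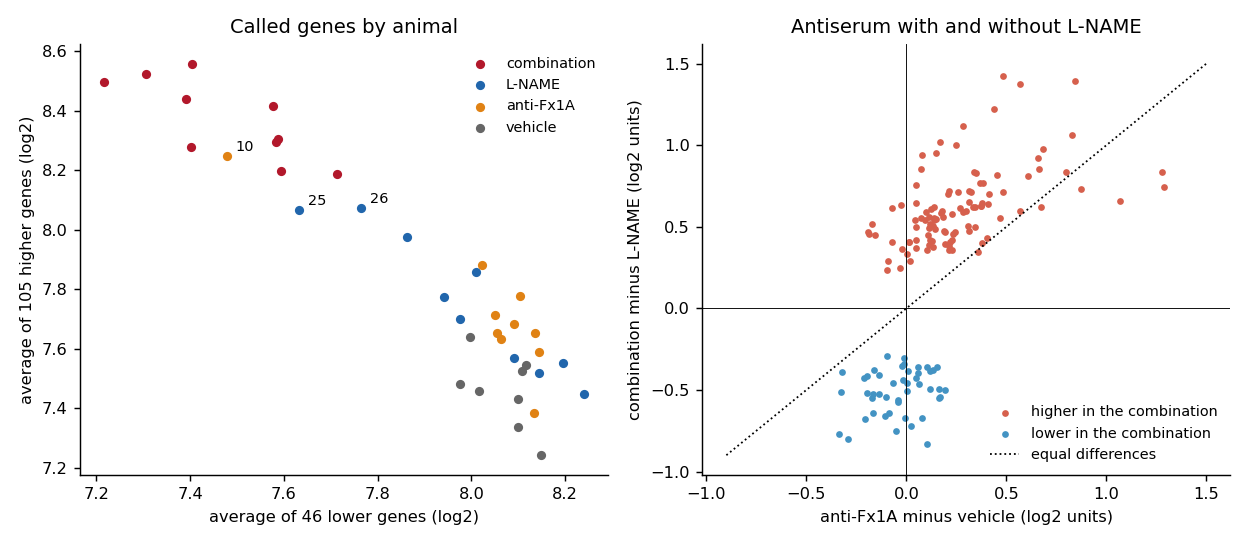
Left, average deposited level (log2) of the 105 higher genes against that of the 46 lower genes in each of the 38 animals; right, difference of each called gene between the combination and L-NAME alone against its difference between anti-Fx1A alone and vehicle (log2 units), with a dotted line of equal differences. Anti-Fx1A animal 10 lies among the combination animals at 8.25 and 7.48, and the 46 lower genes spread around 0 with anti-Fx1A alone, from -0.34 to 0.19.

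The group with the larger spread among animals depended on animal 25. The median SD per gene was 0.22 in the combination and 0.23 with L-NAME, and 55.3% of genes varied less in the combination. Without animal 25 the median SD with L-NAME was 0.21, and 43.2% of genes varied less in the combination. Only the L-NAME group lost its farthest animal here, which by itself lowers its spread, so this change is a description. The mean distance of an animal from its group median was 0.187 ± 0.030 in the combination and 0.196 ± 0.063 with L-NAME (SD, n = 10 each), a difference that did not pass (adjusted permutation p = 0.924, two-sided).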

How the data were processed

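Libraries were made with the QuantSeq 3' kit, per the labels' protocols, so reads come from transcript ends. Per the submitters' processing notes the tools were DESeq2, edgeR 3.40.2 and Salmon 1.4.0, and a genome build is not given in the sources used here. Values were deposited on a log2 scale, after scaling for library size and variance stabilisation by the authors, to judge by the name and the values of the table. The lowest value, 4.32, is that of a count of 0, and 2 header rows were left out. Inverting the stabilising curve from it gave whole reads (100% of values up to 10000 reads within 0.05 of a whole number), which served for depth, for voom and for read counts; whole reads cover counting error only.

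Genes with a mean of at least 5.32 were tested (12599, holding at least 99.4% of each library's reads). Means of the 4 groups were fitted to all 38 animals with limma 3.58.1 in R 4.3.3 (eBayes with trend and robust estimation, Benjamini-Hochberg adjustment over all genes tested, threshold 0.05). Library measures were compared by permutation in Python 3.11.15 with 100000 resamples. The fit was also run on 5 simulated tables, whose outcome is not given here. In these tables the deviations of each library from its group mean were reassigned over all animals. Outlying libraries thus did not stay in their own groups, and the tables do not speak to the dependence on single animals. Over 190 pairs of the 20 libraries, 0 were identical, and chi-square divided by its degrees of freedom was at least 7.38. Nothing in the labels ties animals to litters or batches.

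Named genes are the first 2 called identifiers in each direction by size, the rule set for the case that no symbol can be matched; gene lists, a panel and promoter motifs were not run for that reason, and no sequences are shown. Members and tests were chosen with earlier results of these data known. Alternatives were other scalings, filters, variance models, library weights, voom, a composition covariate, a fit of only the 2 groups, a 1.5-fold threshold and each animal left out. Those that leave out anti-Fx1A or vehicle animals or the 3 libraries of lowest weight, those of the counts with anti-Fx1A alone and those of library measures were added after the data were seen, as was the distance from the group median.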

Additional observations from a re-analysis of the deposited data

Results flagged for a closer look

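A library far from the others of its group was found in 6 of 48 sets of values (Dixon's test at the 95% level, which marks about 1 set in 20 by chance). L-NAME animal 25 lay 0.366 log2 units per gene from the median profile of its group, where the other 9 lay between 0.147 and 0.210. Vehicle animal 1 lay 0.352 from its group, where the others lay between 0.122 and 0.192. Anti-Fx1A animal 10 accounted for the other 4: it lay 0.348 from its group (others 0.127 to 0.245), had a level of 10.82 for ENSRNOG00000005367 (others 11.84 to 12.63) and of 5.95 for ENSRNOG00000036692 (others 7.18 to 8.02), and averaged 7.48 over the 46 genes lower in the combination (others 8.02 to 8.14). No value of a combination animal was set apart in this way.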

How the results depend on the processing

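The count of 151 genes called between the combination and L-NAME alone was 95 without the filter on low values, 338 with a covariate for composition (the percentage of reads in the top 10 genes), 990 with weighted libraries, 1155 without the 3 libraries of lowest weight and 64 with a 1.5-fold threshold on the deposited scale. It ran from 47 to 640 when 1 animal was left out. The interaction, with 0 calls, gave 3 with the stricter filter, 4 with the covariate, 37 with weighted libraries, 41 without the 3 libraries and 0 to 15 with 1 animal left out. The higher genes that were also higher with anti-Fx1A alone numbered 26 to 47 with 1 animal left out. The lower genes also lower there numbered 2, or 4 with weighted libraries, 5 with the covariate and 1 to 4 with 1 animal left out. With 1 animal left out, differences between the combination and L-NAME ran from 14.7 to 22.5 on the leading component (past the threshold only without L-NAME animal 25), from -33.4 to 57.6 in genes with a read, from -0.667 to 1.16 percentage points in the share of the 10 most abundant genes and from -0.0179 to 0.0140 in the distance from the group median. These last 3 changed sign and never passed. Apart from the parts played by fewer genes tested, fewer animals and a stricter threshold in their own settings, the cause of these changes was not tested. The differences of the 4 genes between the combination and L-NAME kept their sign in every setting run. No paired analysis was possible because the groups share no replicate numbers. Genes with few reads are limited by depth, since the deposited scale is compressed there.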
